A study of Mus musculus with 4 samples.

Results

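Gene expression in Rab44-deficient lung without allergen challenge was examined by comparing the normal Rab44-KO library with the normal WT library. A gene was taken if it reached 10 counts in either of these 2 libraries, which held for 18718 of the 41079 genes listed. RNA of whole lung was sequenced in 4 libraries, with 1 library for each genotype under normal conditions and 1 for each genotype after OVA induction. The Rab44-KO mice were derived from C57BL/6 by CRISPR/Cas9 editing, and the methods describe animals of 8 to 14 weeks. The normal mice are labelled as having no treatment. The OVA-induced mice were injected intraperitoneally with ovalbumin (OVA) and alum on days 0, 7 and 14 and then challenged intranasally for 4 days, and they serve here only as a second pair of libraries. How many mice contributed to a library is not given in the sources used here.

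Rab44 is an atypical large Rab GTPase that carries EF-hand and coiled-coil domains in addition to the Rab domain, and it is known from mast cells, osteoclasts and other blood-derived cells, where it acts in lysosome and granule secretion. The comparison addressed which genes differed between 1 Rab44-KO and 1 WT library of resting lung. This tissue is made mostly of endothelial, alveolar, airway and resident immune cells. The aryl hydrocarbon receptor (AhR) is a ligand-activated transcription factor that pairs with Arnt on DNA containing the core GCGTG and induces cytochrome P450 enzymes of family 1 together with phase II enzymes, whereas retinoic acid is made by retinaldehyde dehydrogenases and broken down by cytochrome P450 enzymes of family 26.

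The total counts of the 4 libraries ranged from 18112901 to 19910236, and between 24316 and 25003 genes were detected with at least 1 count. Where 2 counts follow a gene name, the first is from the WT and the second from the Rab44-KO library. Differences are given as log2FC, which sets Rab44-KO over WT on the scale of CPM, the counts scaled to library size. The range in parentheses after a log2FC is the exact 95% interval of the count ratio, also on the log2 scale, and covers counting error only. With 1 library per condition, no difference can be set against the spread between mice, no test was possible, and each comparison is between libraries. "Over 2-fold" means a log2FC beyond 1 in either direction. The 9 marker genes of alveolar type 2 cells, which make surfactant, were all present in the normal libraries, at log2FC of -0.07 to 0.21. Although the methods describe female littermates, Y-linked genes were expressed in all 4 libraries. Ddx3y had 1942 and 1772 counts under normal conditions and 1536 and 2216 after OVA induction, and Uty had 521 and 479, and 363 and 449. Xist, the RNA of the inactive X chromosome, had 41 and 40, and 538 and 72 counts. The description as female therefore does not match the libraries, and none could be set aside, since each is the only library of its condition. In RNA from whole lung, fewer cells of a type and less RNA per cell cannot be told apart.

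The edited gene was examined first. Rab44 (chromosome 17, 29114145 to 29148980 on GRCm38) had 251 counts in WT and 1 count in Rab44-KO lungs under normal conditions. The ratio was 239 with an interval of 42.4 to 9460, and the OVA-induced libraries had 810 and 0 counts. No 150-base stretch of its transcripts occurs in another gene. The other large Rabs with EF-hands were close to equal between the normal libraries. Rasef had 573 and 472 counts (log2FC -0.21, -0.39 to -0.03), and Cracr2a, which acts in calcium entry of T cells, had 957 and 1015 (0.16, 0.03 to 0.29). In a list of 58 Rab GTPases with at least 10 counts, which holds the small Rabs and also Rab44, Rab44 was the only member over 2-fold apart, and the median log2FC was -0.01. Over all 18718 genes, 519 or 2.77% were over 2-fold higher, 374 or 2% were over 2-fold lower, which together are 4.77%, and the median was 0.00. Rab6b, a Golgi Rab, was next among those with at least 100 counts, with 1765 and 1119 counts (log2FC -0.58).

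Genes around the edited locus were also compared. Of 63 other genes that start within 1 Mb of Rab44, 38 had at least 10 counts in at least 1 normal library and their median log2FC was -0.05. None was over 2-fold higher and only Gm35883, with 16 and 2 counts, was over 2-fold lower. The nearest neighbors were Cdkn1a, a cell cycle inhibitor whose start lies at -23.1 kb from that of Rab44, with 437 and 564 counts (log2FC 0.44, 0.26 to 0.62), and Cpne5, at 42.4 kb, with 159 and 96 counts (-0.65, -1.04 to -0.28). Among the 28 neighbors with at least 100 counts, the log2FC ran from the value of Cpne5 to 0.53 in Mapk13, a p38 kinase with 147 and 202 counts.

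**Figure D1:**
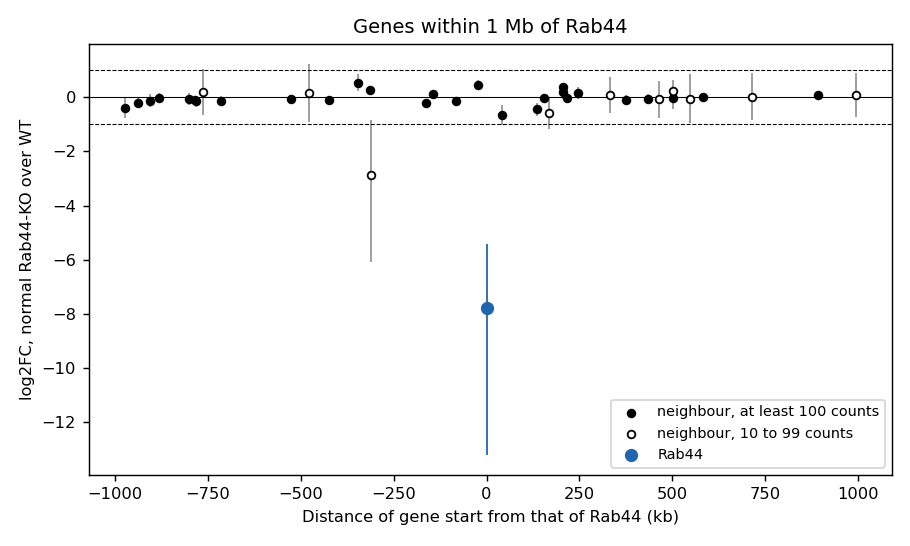
Difference between the normal libraries (log2FC of Rab44-KO over WT, vertical axis) for Rab44 and the 38 genes around it, by the distance of their start from that of Rab44 in kb. Vertical lines are exact 95% counting intervals and dashed lines mark 2-fold. Rab44 lies at -7.76, whereas its neighbors with at least 100 counts lie between -0.65 and 0.53.

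The promoters of AhR targets and of a heat shock gene are shown because these families contain several of the genes furthest apart between the normal libraries. They were taken from RefSeq on GRCm38.p6 from 250 bases before to 50 bases after the start site, read 5′ to 3′ on the strand of the gene, with the motif in capitals. Of 9 AhR target genes listed, 7 had a promoter there and 4 of these contained GCGTG on either strand, or 57.1%, against 32.4% of all 32851 promoters. The motif was not particular to this list, since it was in 60% of the promoters of NRF2 targets, in 43.8% of those of cytosolic heat shock genes and in 27% of those of the genes over 2-fold higher with at least 100 counts. Positions are counted from the start site, with negative numbers upstream of it. The motif began at -54 in Cyp1a1 (chr9:57697363-57697662, plus strand). On the opposite strand, where the capitals show its reverse complement, it began at -76 in Cyp1b1 (chr17:79715012-79715311, minus strand) and at -170 in Tiparp (chr3:65528197-65528496, plus strand). Ahrr (chr13:74292282-74292581, minus strand) had 3 copies, at -107, -82 and -27, of which 1 was also a match to the longer TNGCGTG, found in 5.07% of all promoters. The promoters of Nqo1, Ugt1a6a and Cyp1a2 had none in this window.
Cyp1a1: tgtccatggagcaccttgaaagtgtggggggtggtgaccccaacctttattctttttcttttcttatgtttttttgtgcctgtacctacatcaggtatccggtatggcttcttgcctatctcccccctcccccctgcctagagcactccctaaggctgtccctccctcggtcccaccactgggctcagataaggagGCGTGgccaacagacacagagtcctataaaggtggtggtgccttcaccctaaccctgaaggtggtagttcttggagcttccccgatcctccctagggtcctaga
Cyp1b1: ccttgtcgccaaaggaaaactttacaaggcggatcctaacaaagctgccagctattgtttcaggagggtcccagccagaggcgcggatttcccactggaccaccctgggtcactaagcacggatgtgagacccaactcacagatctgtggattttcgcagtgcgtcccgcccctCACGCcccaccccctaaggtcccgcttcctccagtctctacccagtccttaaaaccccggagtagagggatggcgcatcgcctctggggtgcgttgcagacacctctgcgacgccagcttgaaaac
Tiparp: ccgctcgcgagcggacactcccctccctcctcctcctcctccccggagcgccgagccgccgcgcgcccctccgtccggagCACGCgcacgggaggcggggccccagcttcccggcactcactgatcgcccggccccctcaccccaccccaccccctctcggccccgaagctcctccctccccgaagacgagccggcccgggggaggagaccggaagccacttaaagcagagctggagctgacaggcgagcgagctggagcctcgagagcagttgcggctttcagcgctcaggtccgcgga
Ahrr: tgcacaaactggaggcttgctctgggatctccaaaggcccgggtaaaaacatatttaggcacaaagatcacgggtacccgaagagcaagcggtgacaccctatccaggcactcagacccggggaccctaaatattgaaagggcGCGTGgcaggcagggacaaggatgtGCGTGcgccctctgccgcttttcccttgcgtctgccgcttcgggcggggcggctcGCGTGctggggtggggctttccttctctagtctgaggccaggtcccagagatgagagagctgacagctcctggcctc

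The heat shock motif GAANNTTC, which reads the same on both strands, was found in the promoters of 9 of 11 cytosolic heat shock genes matched, or in 10 of their 16 promoters, against 7.86% of all promoters. Hspa1a (chr17:34972107-34972406, minus strand) has it at -104, and the promoter of its paralog Hspa1b (chr17:34959189-34959488, minus strand) differs from it at 4 of 300 bases and has the motif at the same place. A match describes the letters of these windows and is not a measured binding site.
Hspa1a: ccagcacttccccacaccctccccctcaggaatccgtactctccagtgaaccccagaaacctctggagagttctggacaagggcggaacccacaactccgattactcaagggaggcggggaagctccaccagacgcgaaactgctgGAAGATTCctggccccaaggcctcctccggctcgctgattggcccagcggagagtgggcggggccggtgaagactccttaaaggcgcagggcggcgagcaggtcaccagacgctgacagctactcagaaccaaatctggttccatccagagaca

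Most genes differed little between the normal libraries. Of 13166 genes with at least 100 counts in either of the 2 libraries, the middle 90% had a log2FC between -0.31 and 0.34. In Rab44-KO lungs, 44 of them (0.334%) lay over 2-fold higher and 11 (0.0835%) lay over 2-fold lower, together 0.418%. The interval lay wholly beyond 2-fold for 0.144% on the higher and 0.0228% on the lower side. Genes with few counts were over 2-fold apart more often. The share was 30.2% among genes with 10 to 19 counts, 2.74% among those with 50 to 99 counts and 0.254% among those with at least 1000 counts. By gene type, 2.54% of 15179 protein-coding genes and 13.5% of 3197 noncoding RNAs were over 2-fold apart, with a median of 516 and 36 counts in the higher library. Among all 18718 genes, 51 (0.272%) had an interval wholly beyond 2-fold on the higher side and 19 (0.102%) on the lower side. The interval lay above no difference for 14.6% and below it for 14.8% of all 18718 genes, so that an interval on either side of 0 was common.

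**Figure D2:**
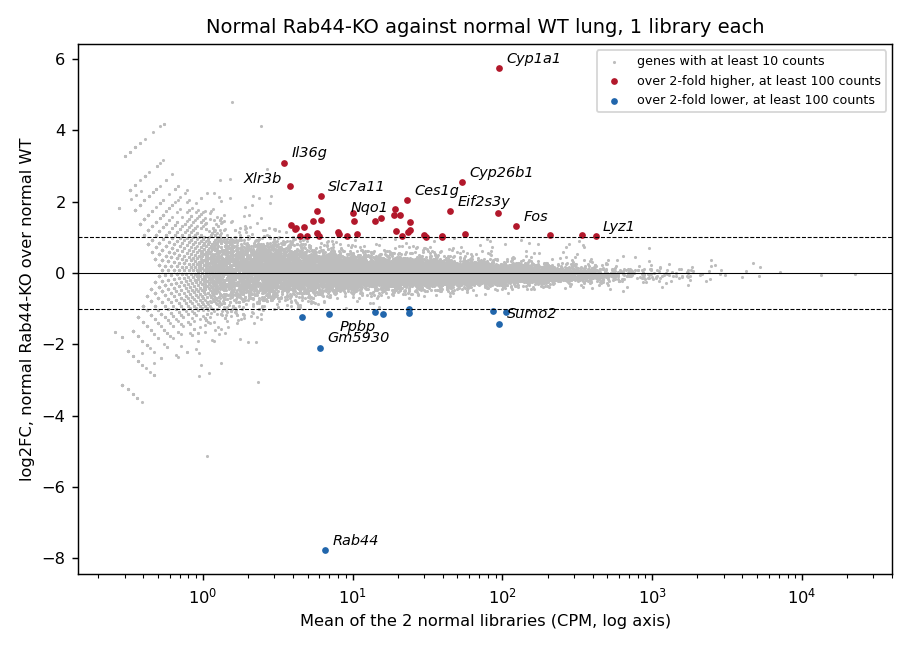
Difference between the normal libraries (log2FC, vertical axis) against the mean level of each gene (CPM, log axis) for 18718 genes. Red points are the 44 genes over 2-fold higher and blue points the 11 genes over 2-fold lower with at least 100 counts, dashed lines mark 2-fold, and genes at 0 counts in a library are placed at a floor of 3 counts.

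Targets of the AhR were higher in the normal Rab44-KO library than in the normal WT library. Of 9 listed genes, 8 had at least 10 counts, all 8 lay on the higher side, 6 were over 2-fold higher (2.77% of all genes) and none was over 2-fold lower (2% of all genes). Their median log2FC was 1.34, against 0.00 over all genes. Cyp1a1 (chromosome 9, 57687928 to 57703824), a P450 enzyme that oxidizes polycyclic aromatic compounds, had 67 and 3418 counts under normal conditions and 30 and 212 counts after OVA induction. This was 3.49 CPM against 187 CPM in the normal libraries, a log2FC of 5.74 (5.40 to 6.12) or 53.7-fold. The normal Rab44-KO library stood far above the other 3. Cyp1b1 (chromosome 17, 79701537 to 79715061), a related enzyme, had 202 and 376 counts in the normal libraries (log2FC 0.97, 0.72 to 1.22) and 302 and 485 in the OVA-induced libraries (0.67). Both Rab44-KO libraries were above both WT libraries. The remaining enzyme of this family, Cyp1a2, had 0 counts in both normal libraries.

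The phase II enzymes of the same list were also higher. Nqo1 (chromosome 8, 107388225 to 107403206), a quinone reductase, had 179 and 523 counts in the normal libraries (log2FC 1.62, 1.37 to 1.87), and 95 and 203 in the OVA-induced libraries. Ugt1a6a (chromosome 1, 88134809 to 88218997), which joins glucuronic acid to phenols, had 152 and 419 counts in the normal libraries (1.54, 1.27 to 1.81), and 184 and 479 in the OVA-induced ones. Its neighbor Ugt1a6b had 22 and 81 counts (1.95, 1.26 to 2.70). These genes share their last exons, and 49.1% of the 150-base windows of Ugt1a6a and 65.4% of those of Ugt1a6b occur in other genes, so that their counts are uncertain. Ugt1a7c, which shares the same exons, had 74 and 64 counts (-0.14, -0.64 to 0.37). Aldh3a1 (chromosome 11, 61207537 to 61218421), an aldehyde dehydrogenase, had 278 and 586 counts (1.15, 0.94 to 1.36), and 289 and 777 in the OVA-induced libraries. For Nqo1, Ugt1a6a and Aldh3a1, as for Cyp1b1, both Rab44-KO libraries exceeded both WT libraries.

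Feedback genes of the pathway are also in the list. Tiparp, an ADP-ribosyltransferase that limits AhR activity, had 740 and 842 counts (log2FC 0.26, 0.12 to 0.40). Ahrr, the AhR repressor, had only 8 and 16 counts (1.06, -0.24 to 2.51), and although it counts among the 6 genes over 2-fold higher, its interval includes no difference. The receptor and its partner were close to equal. Ahr had 2200 and 2380 counts (0.19, 0.10 to 0.27) and Arnt 1791 and 1694 (-0.01). None of the 5 listed components was over 2-fold apart. Markers of cells that are known to express these enzymes were also read, and their part in these values was not tested. Of 8 club cell markers, 7 lay on the higher side and 6 intervals lay above no difference, against 14.6% of all genes, with a median of 0.27. Intervals exclude no difference more often at high counts, as they did for 49.6% of all genes with at least 1000 counts. Their summed level was 27867 CPM in WT and 28632 CPM in Rab44-KO lungs, most of it Scgb1a1, with 440878 and 410819 counts (-0.03). The summed level of 10 endothelial markers was 4061 and 4051 CPM.

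Retinoid metabolism was represented mainly by Cyp26b1 (chromosome 6, 84571414 to 84593908), which hydroxylates retinoic acid. Its counts were 300 and 1671 under normal conditions, or 15.6 and 91.6 CPM, a log2FC of 2.55 (2.37 to 2.73). The OVA-induced libraries had 758 and 9029 counts (3.56, 3.46 to 3.67), so that the Rab44-KO library was the higher within both pairs. Of the other breakdown enzymes, Cyp26a1 had 4 and 0 counts, and Cyp26c1 was below 10 counts. Lrat (chromosome 3, 82892579 to 82903973), which stores retinol as esters, had 2077 and 3522 counts (0.84, 0.76 to 0.91), and 1354 and 3018 in the OVA-induced libraries. Aldh1a2, a retinaldehyde dehydrogenase, had 137 and 249 counts (0.93, 0.63 to 1.25), but 570 and 538 in the OVA-induced libraries. Aldh1a1, at 1357 and 1558 TPM the most abundant of the 3 enzymes of this kind when levels are scaled by gene length, had a log2FC of 0.17 (0.15 to 0.19). Of 9 genes of synthesis and transport with at least 10 counts, 1 was over 2-fold higher (Dhrs9, 9 and 18 counts), against 2.77% of all genes, and the median log2FC was 0.06. The 6 retinoid receptors had a median of -0.06, and Rarb, itself a target of retinoic acid, had 181 and 219 counts (0.35, 0.06 to 0.64).

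**Figure D3:**
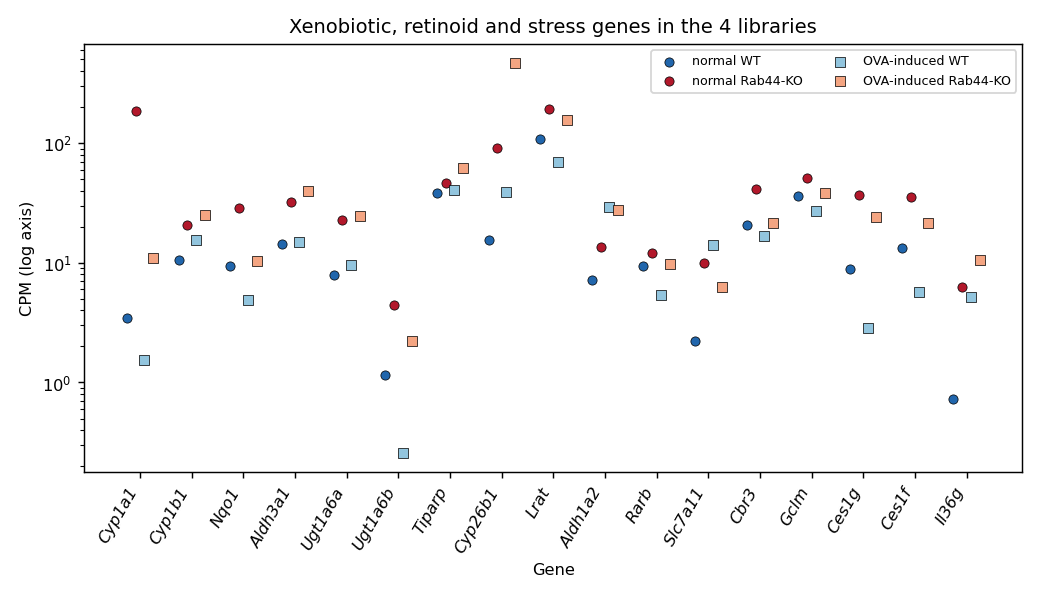
Levels (CPM, log axis) of xenobiotic, retinoid and stress genes in each of the 4 libraries, with 1 point per library. Cyp1a1 is at 187 CPM in the normal Rab44-KO library and at 3.49 CPM in normal WT, and the Cyp26b1 points of both Rab44-KO libraries lie above those of both WT libraries.

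Other families of drug metabolism were mixed. Of 37 cytochrome P450 genes with at least 10 counts, only Cyp1a1 and Cyp26b1 were over 2-fold higher, against 2.77% of all genes, none was over 2-fold lower, and the median was -0.05. Carboxylesterases, which hydrolyze esters and lipids, had a median log2FC of 0.82 over 9 genes, 4 of them over 2-fold higher, against 2.77% of all genes. Ces1g (chromosome 8, 93302369 to 93337308) had 172 and 675 counts (2.05, 1.80 to 2.30), and 55 and 469 in the OVA-induced libraries. Ces1f, which lies beside it, had 253 and 646 counts (1.43, 1.21 to 1.64), and 110 and 423 in the OVA-induced libraries. Ces1b of the same cluster had 23 and 49 counts (1.16, 0.42 to 1.95) and Ces1h had 6 and 15 (1.38, -0.05 to 3.05), at counts where 12.3% to 30.2% of all genes were over 2-fold apart. Both other members of the cluster with at least 10 counts were close to equal, with 15122 and 15090 counts for Ces1d (0.07) and 288 in each library for Ces1e (0.07, -0.17 to 0.31). The 25 glutathione S-transferases had a median of 0.12, and 1 of them, Gsta13 with 1 and 10 counts, was over 2-fold higher, in the range of 10 to 19 counts where 30.2% of all genes were over 2-fold apart. The 18 aldehyde dehydrogenases had a median of 0.04, with 2 over 2-fold higher, against 2.77% of all genes. These were Aldh3a1 and Aldh3b2, the latter with 4 and 13 counts and thus also in the range of 10 to 19 counts.

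Targets of NRF2, the transcription factor of the antioxidant response, lay on the higher side in all 23 listed genes, although by small amounts. Their median log2FC was 0.36, and 3 of 23 were over 2-fold higher, against 2.77% of all genes. The counting interval lay above no difference for 21, against 14.6% of all genes. All 23 had at least 100 counts, and intervals exclude no difference more often at high counts. On either side, they did so for 27.3% of all genes with 100 to below 1000 counts and for 49.6% of those with at least 1000. Slc7a11 (chromosome 3, 49892526 to 50443614), the cystine transporter, had 43 and 182 counts (2.15, 1.67 to 2.67), whereas its log2FC in the OVA-induced pair was -1.17. Nqo1, which is also an AhR target, was the second member over 2-fold higher. Cbr3, a carbonyl reductase, had 396 and 758 counts (1.01, 0.83 to 1.19). The glutathione synthesis genes Gclc, with 3602 and 4451 counts (0.38, 0.31 to 0.44), and Gclm, with 696 and 927 (0.49, 0.34 to 0.63), differed by less. Heme oxygenase, Hmox1, had 460 and 581 counts (0.41, 0.23 to 0.59). In the OVA-induced pair, the median of the same list was -0.15. Genes of the ATF4 amino acid response, of which Slc7a11 is also a member, had a median of -0.09 over 14 genes in the normal pair.

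Immediate-early genes, which respond to stimuli within minutes, were higher in the normal Rab44-KO library. Of 24 genes, 22 lay on the higher side, 5 were over 2-fold higher, against 2.77% of all genes, none was over 2-fold lower, and the median log2FC was 0.44. Fos (chromosome 12, 85473890 to 85477273) had 1360 and 3226 counts (1.32, 1.23 to 1.41), and 533 and 1802 in the OVA-induced libraries. Fosb had 95 and 200 counts (1.15, 0.79 to 1.52), Btg2 4251 and 8374 (log2FC 1.05), and Zfp36, which promotes decay of cytokine mRNAs, 2572 and 5092 (1.06, 0.99 to 1.13). Nr4a3 had 35 and 78 counts (1.23, 0.64 to 1.85). Egr2 and Egr3 lay on the opposite side, with 641 and 511 counts (-0.25) and 100 and 64 counts (-0.57, -1.05 to -0.10). Glucocorticoid-responsive genes, some of which also respond to other stimuli, had a median of 0.45 over 16 genes, with 1 over 2-fold higher, against 2.77% of all genes. Above no difference lay 14 intervals, against 14.6% of all genes. All 16 genes had at least 100 counts. Intervals excluded no difference, on either side, for 27.3% of all genes with 100 to below 1000 counts and 49.6% of those with at least 1000. The member over 2-fold higher was Angptl4, an inhibitor of lipoprotein lipase, with 283 and 616 counts (1.20, 0.99 to 1.40). Zbtb16 had 1447 and 2415 counts (0.81), whereas Fkbp5 had 632 and 551 (-0.12, -0.29 to 0.04). Genes of the circadian clock were near equal, with medians of 0.13 over 6 genes of the Bmal1 phase and 0.07 over 10 genes of the Dbp and Per phase. The time of collection is not given in the sources used here, and its part in these values was not tested.

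Among cytosolic heat shock genes, the inducible Hsp70 genes stood apart from the rest. Hspa1a (chromosome 17, 34969190 to 34972156) had 194 and 567 counts (1.62, 1.38 to 1.86), and Hspa1b (34956436 to 34959238 on the same chromosome) had 165 and 548 (1.80, 1.55 to 2.06). The OVA-induced libraries had 225 and 227 counts of Hspa1a and 221 and 241 of Hspa1b, so that the normal Rab44-KO library stood above the other 3. The paralogs share 39.7% and 40.5% of their windows with other genes, mainly with each other, so that their separate counts are uncertain. The other heat shock genes listed had log2FC between -0.40 and 0.10, including Dnajb1 with 789 and 770 counts and Hsph1 with 787 and 800. Genes of stress in the endoplasmic reticulum had a median of -0.07 over 10 genes.

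Inflammatory ligands were led by Il36g (chromosome 2, 24186476 to 24193568), an epithelial cytokine of the interleukin-1 family. Its counts were 14 and 114 under normal conditions (log2FC 3.09, 2.29 to 4.01), and 101 and 207 in the OVA-induced libraries (1.02, 0.68 to 1.38). The normal WT library was thus the lowest of the 4. Il1b had 115 and 191 counts (0.80, 0.46 to 1.15), and Il1a, Il1rn and Il18 had intervals that include no difference. The 8 receptors of this family had a median of -0.04. Chemokine ligands had a median of 0.41 over 30 genes, 5 over 2-fold higher (2.77% of all genes) and 2 over 2-fold lower (2% of all genes). Apart from Ppbp, these had fewer than 50 counts, where over 2-fold differences were found in 12.3% (20 to 49 counts) and 30.2% (10 to 19 counts) of all genes. Cxcl10, an attractant of T cells, had 8 and 36 counts (2.23, 1.11 to 3.56), Ccl12 had 13 and 30 (1.27, 0.30 to 2.34), and Ccl7 had 9 and 23 (1.42, 0.26 to 2.72). The eotaxin Ccl11 had 94 and 141 counts (0.66, 0.27 to 1.05). Of 20 chemokine receptors, 1 was over 2-fold higher, against 2.77% of all genes. It was Ccr4, with 9 and 29 counts (1.75, 0.64 to 3.03), also in the range of 20 to 49 counts. Type 2 cytokines, alarmins and their receptors had a median of 0.09 over 8 genes, with none over 2-fold apart, and 18 interferon-stimulated genes had a median of 0.08.

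The medians of most immune cell lists were close to 0. The median log2FC was 0.07 over 10 T cell genes, 0.01 over 7 genes of MHC class II, -0.05 over 6 eosinophil genes and 0.20 over 9 neutrophil genes, of which 8 lay on the higher side and 5 had intervals above no difference (14.6% of all genes). It was -0.19 over 8 NK cell genes, of which 6 lay on the lower side, 2 had intervals below no difference (14.8% of all genes) and 1, Eomes with 37 and 17 counts (-1.04, -1.97 to -0.18), was over 2-fold lower (2% of all genes). Ccr3, the eotaxin receptor of eosinophils, had 114 and 153 counts (0.50, 0.14 to 0.86), and Siglecf, also found on alveolar macrophages, had 268 and 222 (-0.20, -0.46 to 0.06). Of the granule proteins that define eosinophils, Epx and Prg3 had 0 counts in both normal libraries and Prg2 had 1 and 9. Of the alveolar macrophage list, only Marco (chromosome 1, 120474538 to 120505024), a scavenger receptor, was over 2-fold apart. It had 145 and 379 counts (1.46, 1.18 to 1.75), but 912 and 76 in the OVA-induced libraries, and the median of the list was 0.01. Lyz1, a lysozyme known from alveolar type 2 cells and intestinal Paneth cells, had 5295 and 10303 counts (1.03, 0.99 to 1.08), against 4650 and 3996 in the OVA-induced libraries. Siglech, a receptor of plasmacytoid dendritic cells, had 51 and 162 counts (1.74, 1.28 to 2.22), and 62 and 172 in the OVA-induced libraries. Mast cell and basophil genes had a median of -0.32 over 9 genes, with Ms4a2 at 23 and 9 counts (-1.27, -2.58 to -0.11), Fcer1a at 12 and 1 counts, and Cpa3 at 59 and 35 (-0.68, -1.33 to -0.05). Ms4a2 and Fcer1a were the 2 members over 2-fold lower, against 2% of all genes. Of all genes, 12.3% with 20 to below 50 counts and 30.2% with 10 to below 20 counts were over 2-fold apart. The 2 members on the higher side were Mcpt4, with 20 and 25 counts (0.39), and Kit. Kit, which endothelial and other lung cells also express, had 4313 and 4995 counts (0.29).

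B cell genes lay on the lower side in 7 of 8 members, with a median of -0.34, and 5 had intervals below no difference, against 14.8% of all genes. All 8 had at least 100 counts. Of all genes with 100 to below 1000 counts, 27.3% had an interval that excludes no difference on either side. Cd79a, a signaling subunit of the B cell receptor, had 837 and 521 counts (-0.61, -0.77 to -0.45). Plasma cell genes had a median of -0.10 over 7 genes, of which 4 lay on the lower side and 2 were over 2-fold higher, against 2.77% of all genes. The latter were Igha and Jchain. Igha, the constant region of immunoglobulin A, had 689 and 1396 counts (1.09, 0.96 to 1.23), and Jchain, which joins its units, had 266 and 521 (1.04, 0.83 to 1.26). Members on the lower side included Sdc1, a proteoglycan that epithelium also makes, with 5593 and 4842 counts (-0.13, -0.19 to -0.08), and Ighg1, with 45 and 26 (-0.72, -1.47 to 0.01). The constant regions Ighm, with 2103 and 2070 counts (0.05), and Igkc, with 1309 and 1159 (-0.10, -0.22 to 0.01), were close to equal. Of 68 immunoglobulin variable genes with at least 10 counts, 20 lay beyond 2-fold on the higher and 12 on the lower side, with a median of 0.11. None reached 100 counts. Of all genes, 30.2% of those with 10 to 19 counts and 12.3% of those with 20 to 49 counts were over 2-fold apart. The largest count among those named for this pair was that of Igkv4-57, with 12 and 86 (2.90, 2.04 to 3.92).

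Platelet and megakaryocyte genes were lower in the normal Rab44-KO library. Of 16 genes, 14 lay on the lower side, 5 were over 2-fold lower, against 2% of all genes, none was over 2-fold higher, and the median log2FC was -0.48. Of the 5, only Ppbp and Tubb1 had at least 100 counts, and of all genes 12.3% with 20 to 49 counts and 2.74% with 50 to 99 counts were over 2-fold apart. The interval lay below no difference for 9 of them, against 14.8% of all genes. Ppbp (chromosome 5, 90768518 to 90770063), a chemokine of platelet granules, had 423 and 180 counts (-1.16, -1.42 to -0.90), but 252 and 713 in the OVA-induced libraries. Tubb1, the tubulin of platelets, had 371 and 164 counts (-1.10, -1.38 to -0.84), against 191 and 528 in the OVA-induced libraries. Treml1 had 69 and 17 counts (-1.94, -2.81 to -1.17) and Gp1bb, a subunit of the von Willebrand factor receptor, had 41 and 12 (-1.69, -2.76 to -0.74). Pf4, by contrast, had 214 and 178 counts, and its interval of -0.49 to 0.10 includes no difference. The summed level of the list was 241 CPM in WT and 183 CPM in Rab44-KO lungs. In the OVA-induced pair the list lay on the opposite side, with a median of 0.94 and a summed level of 223 and 305 CPM. Erythroid genes, 6 in number, had a median of 0.07 and a summed level of 1754 and 1819 CPM in the normal libraries.

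Some genes of tissue beside the lung parenchyma also differed, and their part in the values above was not tested. Of 5 genes of mesothelium, the lining of the pleura, 3 were over 2-fold higher, against 2.77% of all genes. Msln had 500 and 972 counts (1.03, 0.88 to 1.19), Upk3b 504 and 971 (1.02, 0.86 to 1.18), and Lrrn4 92 and 279 (1.67, 1.33 to 2.03), whereas Upk1b had 715 and 641 (-0.08, -0.24 to 0.07). The summed level of this list was 95.3 CPM in WT and 158 CPM in Rab44-KO lungs, against 206 and 202 CPM in the OVA-induced libraries. Adipocyte genes had a median of 0.48 over 8 genes, with 5 on the higher and 3 on the lower side. Plin1 had 62 and 122 counts (1.05, 0.60 to 1.51), whereas Cidec had 389 and 331 (-0.16, -0.38 to 0.06) and Lep 36 and 23 (-0.57, -1.39 to 0.22), and the summed level of the list was 119 and 171 CPM. Heart muscle genes, which the pulmonary veins of mice also express, had a median of 0.15 and a summed level of 759 and 839 CPM. Of 5 pituitary hormone genes with at least 10 counts, 3 were over 2-fold lower, against 2% of all genes. These 3 had fewer than 50 counts, where 12.3% (20 to 49 counts) and 30.2% (10 to 19 counts) of all genes were over 2-fold apart. Gh had 37 and 5 counts (-2.79, -4.52 to -1.46), Pomc 35 and 9 (-1.87, -3.13 to -0.80), and Prl 11 and 0, which is at least 3.49-fold lower at a floor of 3 counts. The others were near equal, with 124 and 110 counts for Lhb (-0.10, -0.48 to 0.28) and 24 and 27 for Tshb (0.24, -0.61 to 1.10). Mucl2, a secreted mucin-like protein, had 15 and 0 counts, at least 4.75-fold lower, and the kallikrein Klk1b26 had 10 and 0, at least 3.17-fold lower. Both were at 0 in the OVA-induced libraries. The other kallikrein of the list with at least 10 counts, Klk1, lay on the opposite side, with 6 and 20 counts (1.79, 0.44 to 3.42).

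Other genes among those furthest apart belong to no list, and of these Serpina3f, Serpina3g, Sfrp2 and Ggt1 were chosen after their values were seen. Ch25h, which makes 25-hydroxycholesterol from cholesterol, had 62 and 165 counts (1.48, 1.06 to 1.93), whereas its log2FC in the OVA-induced pair was -1.80. The protease inhibitors Serpina3f and Serpina3g lie next to each other on chromosome 12 and had 52 and 122 counts (1.30, 0.82 to 1.80) and 132 and 266 counts (1.08, 0.78 to 1.40). In the OVA-induced pair both lay on the lower side, at -1.30 and -1.70. Sfrp2, a secreted modulator of Wnt signaling, had 56 and 145 counts (1.44, 0.99 to 1.92), and Ggt1, which breaks down extracellular glutathione, had 42 and 101 (1.34, 0.81 to 1.89). Below 2-fold on the lower side, Hoxa7, a homeobox transcription factor, had 378 and 187 counts (-0.94, -1.20 to -0.69), Clec12b, a C-type lectin receptor, had 231 and 111 (-0.98, -1.32 to -0.65), and Cntn1, a cell adhesion protein, had 110 and 54 (-0.95, -1.45 to -0.47).

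Structural lung lists were near equal. The median was 0.05 over 9 alveolar type 2 genes, -0.04 over 9 alveolar type 1 genes, 0.02 over 10 endothelial genes, 0.10 over 8 fibroblast genes, -0.05 over 6 smooth muscle genes and 0.12 over 8 ciliated cell genes. No member of these lists was over 2-fold apart. Club cell genes had a median of 0.27, with Bpifa1, an airway defense protein, at 3863 and 5575 counts (0.60, 0.54 to 0.66). The basal keratins were higher at low counts, with Krt5 at 11 and 26 (1.31, 0.25 to 2.48) and Krt15 at 29 and 64 (1.21, 0.56 to 1.90), whereas Trp63, the defining factor of basal cells, had 25 counts in each library. Of the mucus genes, Clca1 had 47 and 108 counts (1.27, 0.77 to 1.80) and Muc5ac had 43 and 27 (-0.60, -1.35 to 0.13).

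**Figure D4:**
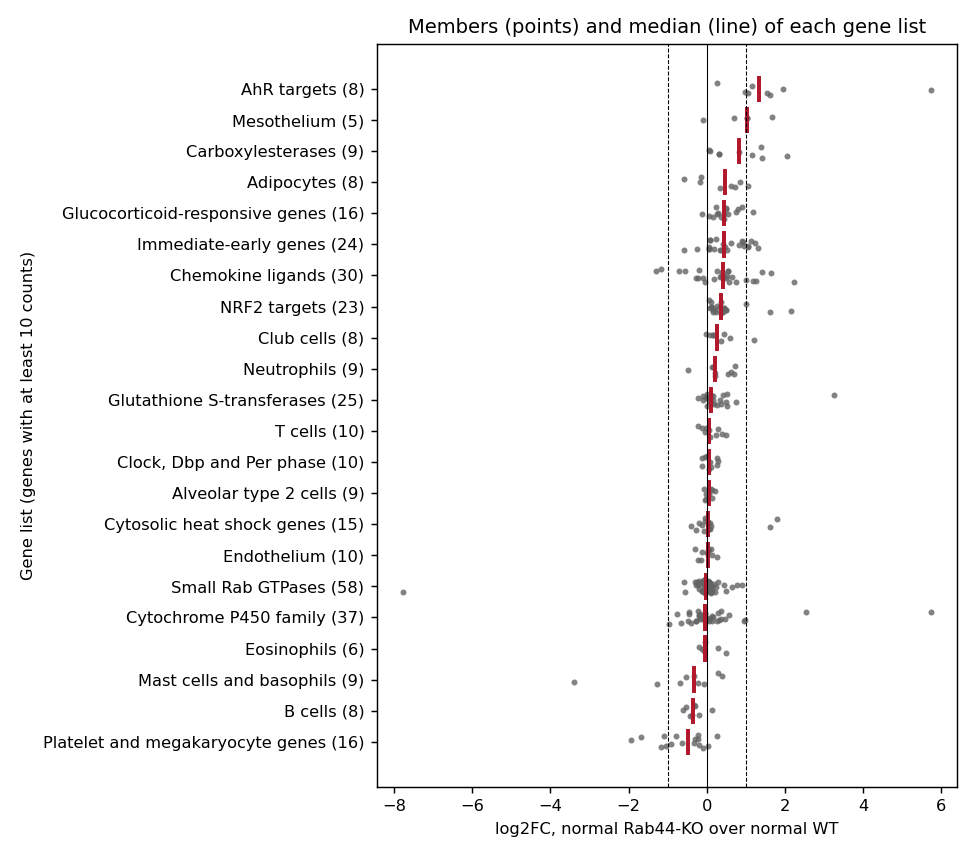
Difference between the normal libraries (log2FC, horizontal axis) for the members of gene lists (points) and their medians (red lines), with the number of members of at least 10 counts in parentheses and genes at 0 counts placed at a floor of 3 counts. The AhR target list has the highest median of those drawn, at 1.34, and the platelet list the lowest, at -0.48. Dashed lines mark 2-fold.

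Among genes with at least 100 counts, 11 were over 2-fold lower in the normal Rab44-KO library. Besides Rab44, Ppbp and Tubb1, they were Gm5930, with 189 and 42 counts (-2.09, -2.62 to -1.61), Sumo2, Gm33998, Gm6288, H2-Q7, Rps27, Ybx3 and Ndufa12. Sumo2, a small protein that is attached to other proteins, had 2667 and 949 counts in the normal libraries (-1.42, -1.53 to -1.31), and 1473 and 252 in the OVA-induced libraries (-2.56). Of its windows, 10.3% occur in other genes, so that its count is uncertain. Ybx3, a cold shock domain protein, had 2248 and 1025 counts (-1.06, -1.17 to -0.95), and 2363 and 2339 in the OVA-induced libraries. The normal Rab44-KO library was thus the lowest of the 4, and the other 3 were close together. H2-Q7, a nonclassical MHC class I gene on chromosome 17, had 625 and 272 counts (-1.13), with 5.9% of its windows shared with other genes.

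Several differences concern genes with near copies or homologs. Rps27, a ribosomal protein gene, had 2742 and 1230 counts (-1.08, -1.18 to -0.99), and its intronless copy Rps27rt had 853 and 2580 (1.67, 1.56 to 1.78). Of the windows of Rps27rt, 87.1% are shared, and the sum of both genes was 3595 and 3810 counts, a log2FC of 0.16 (0.09 to 0.22). The 81 ribosomal protein genes with at least 10 counts had a median of -0.05, and Rps27 was the only member over 2-fold apart. Gm15501, with 104 and 273 counts (1.46), shares 64% of its windows with other genes. Xlr3b (chromosome X, 73192207 to 73202930), a lymphocyte-regulated gene of a tandem family, had 23 and 118 counts (2.43, 1.78 to 3.14), and its relative Xlr3a had 7 and 26 (1.95, 0.72 to 3.41). Of the windows of Xlr3b, 18.7% are shared within the family. Eif2s3y (chromosome Y, 1010543 to 1028847), a subunit of a translation initiation factor with a homolog on the X chromosome, shares 0 of its 4543 windows with other genes. It had 397 and 1259 counts (1.74, 1.57 to 1.90), and 1730 and 1541 in the OVA-induced libraries. The normal WT library was low among the 4, while the Y-linked genes Ddx3y (-0.06, -0.15 to 0.03) and Uty (-0.05, -0.23 to 0.13) were equal within counting error. Kdm5d, also Y-linked, had 484 and 603 counts (0.39, 0.22 to 0.57), and Eif2s3x had 1266 and 1038 counts (-0.21).

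The 55 genes over 2-fold apart with at least 100 counts were finally read in the OVA-induced libraries, which share no library with the normal pair. Of the 44 higher genes, 17 were also over 2-fold higher in Rab44-KO lungs there and 8 were over 2-fold lower, and their median was 0.56. Over all 13166 genes with 100 counts or more in a normal library, the OVA-induced pair had 2.98% beyond 2-fold on the higher side, 2.89% on the lower side and 5.87% on either. The 17 included Cyp1a1, Cyp26b1, Il36g, Xlr3b, Ces1g, Ces1f, Nqo1, Ugt1a6a, Aldh3a1, Siglech, Fos, Fosb, Zfp36 and Angptl4. Acsm1, a mitochondrial acyl-CoA synthetase chosen after its values were seen, was also among them, with 100 and 203 counts in the normal libraries (1.09) and 137 and 279 in the OVA-induced ones (1.02). Of the 11 lower genes, Rab44 and Sumo2 were also over 2-fold lower in the OVA-induced pair, and Ppbp and Tubb1 were over 2-fold higher there. Capn11, a calpain, did not reach 100 counts but was near 0 in both WT libraries, with 2 and 55 counts in the normal pair (log2FC interval 2.93 to 7.94) and 0 and 22 in the OVA-induced pair. Erdr1x had 80 and 9 counts in the normal libraries (-3.07, -4.26 to -2.08), and 2 and 12 in the OVA-induced ones.

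**Figure D5:**
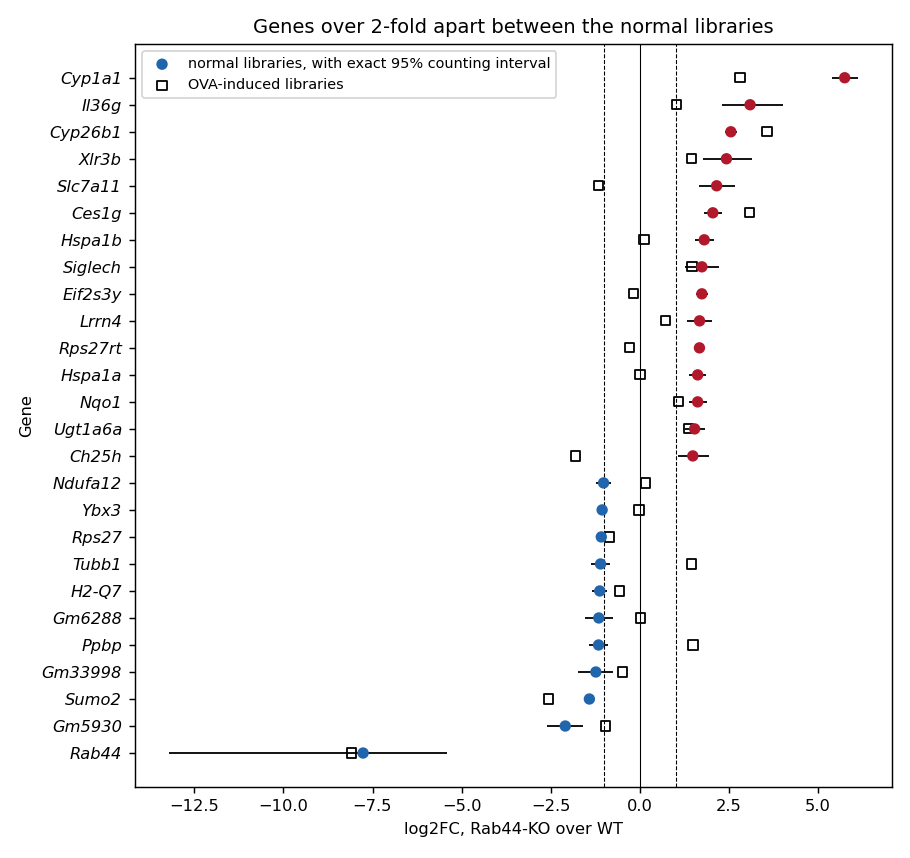
Difference of Rab44-KO over WT (log2FC, horizontal axis) for the 15 leading higher and the 11 lower genes with at least 100 counts. Filled circles with lines are the normal libraries with exact 95% counting intervals, open squares are the OVA-induced libraries, and a count of 0 (Rab44) is set to the floor of 3 counts. The squares of Cyp1a1, Cyp26b1, Ces1g and Xlr3b lie above 1, and those of Slc7a11 and Ch25h lie below -1.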

How the data were processed

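Lung RNA was sequenced in 4 libraries. Per the labels and methods, the authors aligned 150-base paired-end reads to GRCm38 with HISAT2 and counted them per gene with featureCounts, and their notes name DESeq2. Tool versions and the settings for strand and for multiply matched reads are not given in the sources used here. The authors deposited raw counts and TPM, the length-scaled values. Only 2.12% of 39405 genes matched by Entrez gene identifier start at the same base in the deposited table and in RefSeq on GRCm38. Positions were therefore taken from GENCODE M21, and the table gave only distances.

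Libraries were scaled by TMM in edgeR 4.0.16 (R 4.3.3). The log2FC of CPM used a prior count of 0.1, and intervals are exact 95% Clopper-Pearson intervals (Python 3.11.15, scipy 1.17.1). For genes at 0 counts, log2FC and list medians rest on this prior count. Folds given as at least a value, and the figures, place such genes at a floor of 3 counts. With 1 library per condition, no test was run. Named genes are the 15 per direction furthest apart with at least 100 counts, the neighbors of Rab44, members of 66 gene lists and genes the study names for this comparison (such as Capn11, Erdr1x and Mucl2). A few others, such as Sfrp2, Ggt1 and Mir682, were chosen after their values were seen. Members and lists were chosen with earlier results of these data known. Alternatives were DESeq2 1.42.0 size factors, other scalings, count minimums, thresholds, TPM, thinning and removal of the length trend (500-gene windows). The steps were tested on simulated counts that held counting error only, without spread between mice. All 200 changes, planted in genes with many counts, were recovered. Of unchanged genes, 337 with at least 10 counts were over 2-fold apart, and 0 with at least 100 counts.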

Additional observations from a re-analysis of the deposited data

Results flagged for a closer look

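For 10 of the 55 genes over 2-fold apart with at least 100 counts, the OVA-induced pair lay over 2-fold apart in the opposite direction. The difference between the pairs was not tested, since each pair has 1 library per condition, and its cause was not tested.

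The platelet genes Ppbp and Tubb1 were lower in the normal and higher in the OVA-induced Rab44-KO library, and the log2FC of the OVA-induced pair minus that of the normal pair was 2.65 for Ppbp and 2.56 for Tubb1. The other 8 genes were higher in the normal and lower in the OVA-induced Rab44-KO library. This difference was -10.04 for Clca1, a mucus-associated protease, -5.05 for the scavenger receptor Marco, -3.32 for the cystine transporter Slc7a11 and -3.28 for Ch25h. It was -2.78 for Jchain, -2.78 for Serpina3g, -2.60 for Serpina3f and -2.45 for the microRNA gene Mir682.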

How the results depend on the processing

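The log2FC of the named genes and the medians of the gene lists kept their direction under DESeq2 size factors, total counts, TMM on the 2 normal libraries and a prior count of 2. They also did so under TPM, thinned counts and removal of the length trend, except that medians near 0 changed sign for prostaglandin enzymes, small Rab GTPases, mitochondrially encoded genes and sex-linked genes. The median of the 2 salivary kallikreins turned from -2.41 to 1.97 with thinned counts, but it rests on Klk1b26 at 0 counts in 1 library and was 0.065 with that gene at the floor of 3 counts, so it has no direction. No scaling moved the median of all genes by more than 0.03. With a prior count of 2 and with TPM, 5 rather than 6 AhR targets were over 2-fold higher. Under the same settings, 4 rather than 5 platelet genes were over 2-fold lower and 4 rather than 5 chemokine ligands over 2-fold higher. With total counts, thinned counts and the length trend removed, 6 chemokine ligands were over 2-fold higher. The counts of genes over 2-fold, 519 higher and 374 lower, depended on the count minimum. They were 3313 and 2521 with a minimum of 1 count, 75 and 26 with 50 counts, and 44 and 11 with 100 counts. A log2FC beyond 2 left 106 and 80 genes, and an interval wholly beyond 2-fold left 51 and 19. The median of the retinoid breakdown list, which rests on Cyp26b1, was -3.43 with a minimum of 1 count, where members with at most 4 counts enter. The small medians of the P450 genes (0.07 at 50 and at 100 counts), eosinophil genes (0.13 at 1 count) and plasma cell genes (0.05 at 100 counts) changed sign with the minimum. Other medians that moved were 0.99 for immunoglobulin variable genes at a minimum of 50 counts, -0.12 for skeletal muscle genes at 1 count, -0.064 for thymus genes at 1 and at 100 counts, 2.43 for the Xlr family at 100 counts, and -0.028 with TPM and -0.017 without the length trend for ribosomal proteins. No paired analysis was possible because each condition has 1 library, and for the same reason no library could be left out. The limits are that mice, litters, days and libraries cannot be told apart from genotype, that intervals cover counting error only, and that genes with few counts have wide intervals.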
